A study of Sus scrofa with 8 samples.

Results

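The mitochondrial biogenesis regulators described here are 10 genes of the 30550 in the deposited expression table, chosen by name: the coactivators PPARGC1A and PPARGC1B, the nuclear receptors PPARA, PPARD, ESRRA and ESRRG, the nuclear transcription factor NRF1, and the mitochondrial transcription proteins TFAM, TFB2M and POLRMT. All 10 were found, each on 1 row. RNA had been sequenced from right ventricular tissue of pigs (Sus scrofa) heterozygous for a knockout of PKP2, in 4 libraries (PKP2_het), and of wild-type pigs, in 4 libraries (WT). PKP2 encodes plakophilin 2, a desmosomal plaque protein, and the series presents the heterozygous animals as a model of arrhythmogenic cardiomyopathy. The labels give no age, sex, litter or founder line, and none says that each library came from its own animal, so every p-value below reflects only how much these libraries vary, which may be technical.

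PPARGC1A and PPARGC1B encode coactivators (PGC-1 alpha and PGC-1 beta) that bind no DNA themselves and are recruited by nuclear receptors and by NRF1. The receptors PPAR alpha and PPAR delta drive fatty acid oxidation genes, and the estrogen-related receptors ERR alpha and ERR gamma drive genes of respiration, both programmes being prominent in adult heart muscle. NRF1 acts on nuclear genes of the respiratory chain and on TFAM; the proteins TFAM, TFB2M and POLRMT then form the complex that transcribes mitochondrial DNA. No sequence of these genes was used here.

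Each library held between 23637697 and 31313628 fragments assigned to genes. PKP2 itself, the targeted gene, was at 45.4, 40.7, 24.6 and 45.9 FPKM in PKP2_het and at 52.9, 62.2, 61.1 and 72.8 FPKM in WT, which put its PKP2_het mean at 62.9% of that of WT, with groups that did not overlap and a two-sided exact permutation p of 0.0286, the smallest that 70 relabellings can give; without PKP2_het replicate 3 the p was 0.0571 and the mean 70.7%. Its adjusted p across all genes was 0.164 (limma). FPKM is the number of fragments per kilobase of gene length, scaled between libraries by the authors. PKP2_het replicate 3 stood apart: 52.1% of its fragments came from the mitochondrial genome, against 21.1% to 33.4% in the other PKP2_het libraries and 22.0% to 37.6% in WT. In that library the longest 25% of genes lay 0.18 below the mean of the other PKP2_het libraries in the median (log2 scale) and the shortest 25% lay 0.16 above it. The labels name cardiomyocytes, but the tissue was whole: summed cardiomyocyte markers ran from 25960 to 34880 FPKM in PKP2_het and from 27200 to 30270 FPKM in WT, and endothelial, fibroblast, macrophage and smooth muscle markers were present as well. In such bulk tissue, fewer cells of a type and less RNA per cell cannot be told apart.

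No difference between PKP2_het and WT tissue beyond the spread of the libraries was detected for any regulator that was tested. Of the 10 genes, 8 passed the filter of at least 1 FPKM in at least 4 libraries and were tested, and 0 were called at a Benjamini-Hochberg adjusted p of 0.05 in limma, where 1.86% of all 10757 genes tested were called. At an unadjusted p of 0.05 the count was also 0 of 8, against 12.8% of all genes tested, and voom on recovered fragments, another fit in limma, called 0. Without PKP2_het replicate 3 the counts were again 0 adjusted and 0 unadjusted, where 2.92% and 16.6% of all genes tested passed. The groups overlapped for 10 of 10 regulators, whereas they did not overlap for 9.19% of the genes tested. Log2 fold changes were positive for 3 and negative for 5 of the 8 tested regulators, with a median of -0.028, against -0.022 for all genes tested; without PKP2_het replicate 3, 6 were positive and 2 negative, with a median of 0.14, against 0.0067 for all genes tested. Scaling the libraries to equal FPKM sums gave 1 positive and 7 negative, with a median of -0.27, where the median of all genes tested was -0.23. ESRRG and NRF1 fell below the filter and are given by their values.

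**Figure D1:**
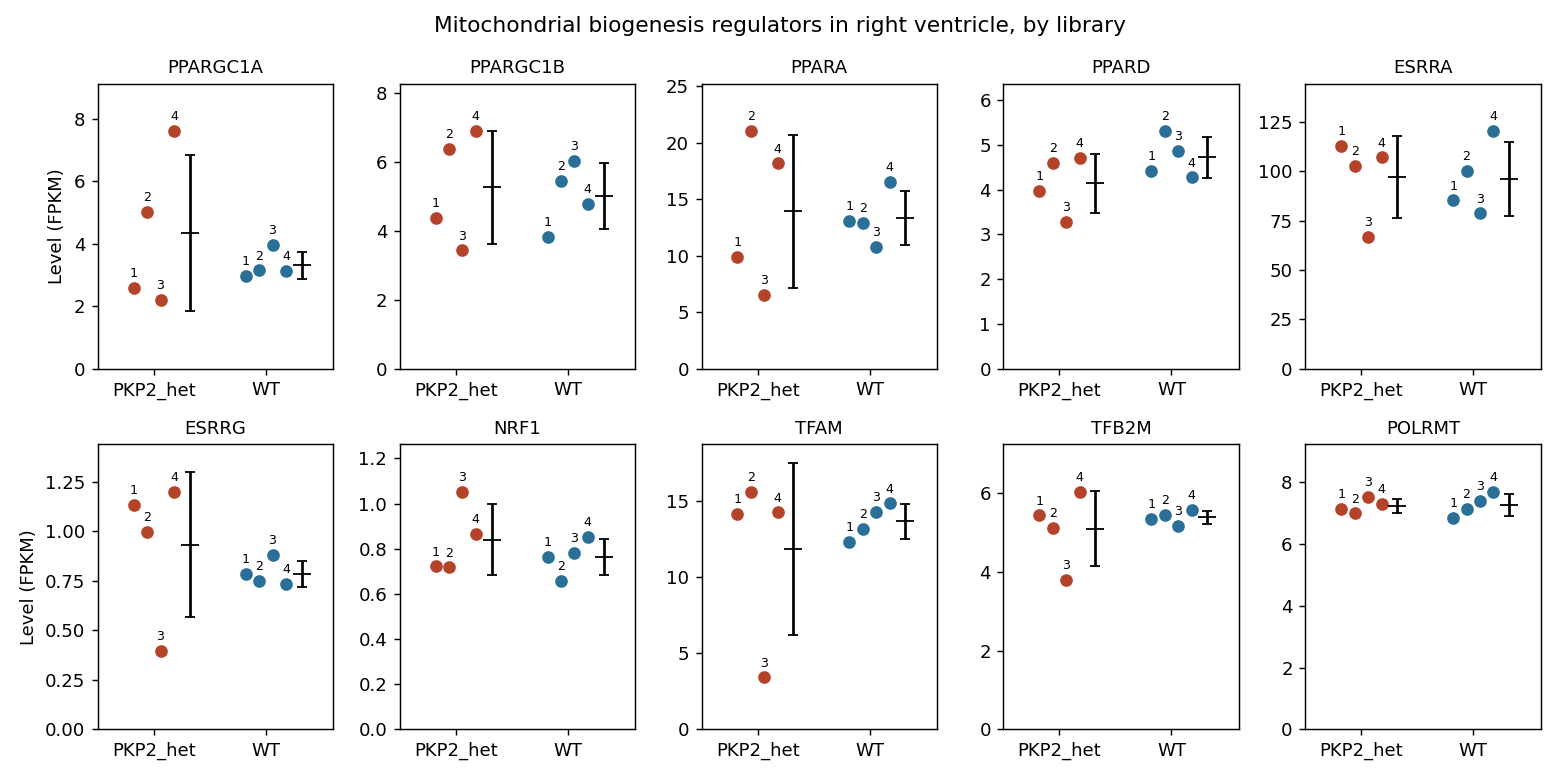
Level of each regulator in FPKM (vertical axis, from 0) in the 4 PKP2_het libraries and the 4 WT libraries; points carry the replicate number and the bar to their right is the mean with 1 SD. PKP2_het replicate 3 is the lowest of the 8 libraries for 8 of the 10 genes, 7 of them tested, and for 36.3% of all genes tested. POLRMT lies between 6.83 and 7.69 FPKM everywhere.

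PPARGC1A, the coactivator induced by cold, exercise and fasting, was at 2.59, 5.02, 2.20 and 7.60 FPKM in PKP2_het replicates 1 to 4, and at 2.98, 3.14, 3.95 and 3.13 FPKM in WT replicates 1 to 4. The 4 PKP2_het libraries lay on both sides of the WT range, with replicates 2 and 4 above it and replicates 1 and 3 below it. Its highest PKP2_het level was 3.45 times its lowest, against 1.33 times within WT. The log2 fold change was 0.20 with a 95% interval of -0.42 to 0.83 (limma adjusted p = 0.779), which on the scale of FPKM + 1 covers folds from 0.746 to 1.78. Its direction rested on PKP2_het replicate 4, without which the log2 fold change was -0.062. With libraries weighted by their fit, the unadjusted p was 0.0261, a level that 21.3% of all genes tested passed in that setting, and the limma adjusted p was 0.167. In the Sscrofa11.1 assembly PPARGC1A (gene 397013) occupies positions 17841844 to 18527953 of chromosome 8.

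PPARGC1B, its paralog, was at 4.37, 6.39, 3.44 and 6.90 FPKM in PKP2_het and at 3.82, 5.45, 6.05 and 4.79 FPKM in WT. As with PPARGC1A, PKP2_het replicates 2 and 4 exceeded every WT library, while replicate 1 fell inside the WT range and replicate 3 below it. PPARGC1B had a log2 fold change of 0.034 ± 0.20 (SE; limma adjusted p = 0.957). It turned negative without PKP2_het replicate 2, at -0.058, without PKP2_het replicate 4, at -0.090, and without WT replicate 1, at -0.069. Within a library the PPARGC1A level was 0.592, 0.785, 0.641 and 1.10 times that of PPARGC1B in PKP2_het, and 0.780, 0.577, 0.654 and 0.654 times in WT. Only in PKP2_het replicate 4 was PPARGC1A the higher of the pair. The mean log2 ratio differed by 0.19 between PKP2_het and WT (two-sided exact permutation p = 0.457, 0.686 adjusted over the 2 ratios tested).

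PPARA, the main fatty acid sensor among the receptors of cardiac muscle, was at 9.92, 21.0, 6.56 and 18.2 FPKM in PKP2_het and at 13.1, 12.9, 10.8 and 16.5 FPKM in WT. The order of the PKP2_het libraries again put replicates 2 and 4 above the WT range and replicates 1 and 3 below it. For PPARA the log2 fold change was -0.053 with a 95% interval of -0.75 to 0.64 (limma adjusted p = 0.957), and 0.23 without PKP2_het replicate 3. PPARD, the receptor expressed in most tissues, was at 3.97, 4.58, 3.28 and 4.71 FPKM in PKP2_het and at 4.42, 5.30, 4.87 and 4.27 FPKM in WT. Its 2 lowest libraries were PKP2_het replicates 3 and 1, and the other PKP2_het libraries lay within the WT range. PPARD had a log2 fold change of -0.16 ± 0.12 (SE; limma adjusted p = 0.623), and -0.075 without PKP2_het replicate 3.

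ESRRA (ERR alpha) had the highest level of the regulators in every library. It was at 113, 103, 66.8 and 107 FPKM in PKP2_het and at 85.3, 100.2, 78.7 and 120 FPKM in WT. PKP2_het replicate 3 was the lowest library, and the other PKP2_het libraries fell inside the WT range. ESRRA had a log2 fold change of 0.0089 ± 0.20 (SE; limma adjusted p = 0.988), and its sign changed in 7 of 17 alternative settings. ESRRG (ERR gamma), its paralog in oxidative muscle, was at 1.13, 0.995, 0.398 and 1.199 FPKM in PKP2_het and at 0.786, 0.749, 0.879 and 0.733 FPKM in WT. PKP2_het replicates 1, 2 and 4 were above every WT library and replicate 3 below every one.

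Without PKP2_het replicate 3, ESRRG averaged 1.11 ± 0.104 FPKM in PKP2_het (SD, n = 3) and 0.787 ± 0.0655 FPKM in WT (SD, n = 4), and it was the 1 regulator of 10 whose groups then did not overlap, against 15.7% of the genes tested. With no filter and all 8 libraries, its log2 fold change was 0.091 with a limma adjusted p of 0.813. ESRRA stood 99.6, 103, 168 and 89.3 times as high as ESRRG in PKP2_het and 109, 134, 89.5 and 164 times in WT. The mean log2 ratio differed by -0.12 (two-sided exact permutation p = 0.686, also 0.686 adjusted over the 2 ratios). For ESRRA to ESRRG the highest ratios occurred in 1 library of each group, PKP2_het replicate 3 and WT replicate 4.

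NRF1, the nuclear respiratory factor, was at 0.722, 0.718, 1.05 and 0.867 FPKM in PKP2_het and at 0.765, 0.658, 0.783 and 0.852 FPKM in WT. In contrast with the receptors and coactivators, its highest library was PKP2_het replicate 3, and replicates 1 and 2 lay within the WT range. NRF1 rested on 172 to 263 fragments per library. With no filter, its log2 fold change was 0.058 with a limma adjusted p of 0.787.

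TFAM, which packages mitochondrial DNA and bends its promoters for transcription, was at 14.2, 15.6, 3.42 and 14.3 FPKM in PKP2_het and at 12.3, 13.2, 14.3 and 14.8 FPKM in WT. Replicate 3 was far below the other 7 libraries, which ran from 12.3 to 15.6 FPKM. Its level rested on 140 fragments, with an exact Poisson 95% interval of 2.87 to 4.03 FPKM that covers counting error only. Relative to the mean of the other PKP2_het libraries it was 1.83 lower on the log2(FPKM + 1) scale, and 0.279% of the genes tested were further below that mean in that library. The log2 fold change of TFAM was -0.36 with a 95% interval of -1.197 to 0.48 (limma adjusted p = 0.718). Without that library it was 0.098, with an interval of -0.11 to 0.30 and a limma adjusted p of 0.646. TFAM (gene 397279) occupies positions 92261713 to 92279731 of chromosome 14 in the same assembly.

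TFB2M, which opens the mitochondrial promoter for the polymerase, was at 5.42, 5.11, 3.79 and 6.02 FPKM in PKP2_het and at 5.33, 5.44, 5.16 and 5.56 FPKM in WT. The WT libraries lay close together and PKP2_het libraries spread around them, replicate 4 above and replicates 2 and 3 below. TFB2M had a log2 fold change of -0.080 ± 0.12 (SE; limma adjusted p = 0.804), and 0.031 without PKP2_het replicate 3. POLRMT, the mitochondrial RNA polymerase, was at 7.13, 6.995, 7.51 and 7.29 FPKM in PKP2_het and at 6.83, 7.13, 7.39 and 7.69 FPKM in WT. It was the most even of the regulators, its highest library being 1.12 times its lowest, and the PKP2_het range lay inside the WT range. The log2 fold change was -0.0039 with a 95% interval of -0.20 to 0.19 (limma adjusted p = 0.988), which on the scale of FPKM + 1 covers folds from 0.871 to 1.14. It was the 1 tested regulator for which PKP2_het replicate 3 was not the lowest library, while that library was the lowest for 36.3% of all genes tested.

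**Figure D2:**
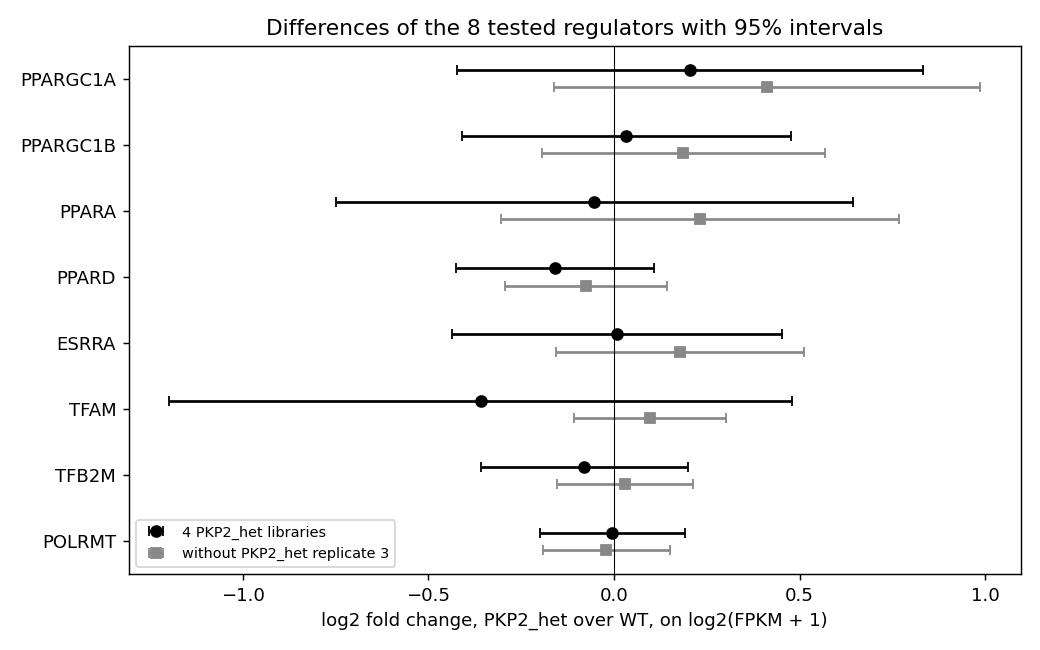
Log2 fold change of PKP2_het over WT on log2(FPKM + 1) (horizontal axis) for the 8 tested regulators (rows), with 95% limma intervals; circles use all 8 libraries and squares leave out PKP2_het replicate 3. Every interval includes 0; that of TFAM runs from -1.197 to 0.48 with all libraries and from -0.11 to 0.30 without replicate 3, and that of POLRMT from -0.20 to 0.19.

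Most regulators, like most genes tested, varied more among the PKP2_het than among the WT libraries. The SD of log2(FPKM + 1) was larger in PKP2_het for 9 of 10 regulators, POLRMT being the exception, and it was larger in PKP2_het for 74.1% of all genes tested. Without PKP2_het replicate 3 it was larger for 6 of 10, and for 47.1% of the genes tested. The spread of PPARGC1A and PPARA remained larger in PKP2_het, at 0.63 and 0.54 without replicate 3, against 0.14 and 0.24 in WT. For ESRRA it was then 0.068 in PKP2_het and 0.27 in WT, and for TFAM 0.073 in PKP2_het and 0.11 in WT.

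Library by library, the PKP2_het samples fell into unlike positions. In replicate 3, 8 of the 10 regulators were below every WT library, among them 7 of the 8 tested, where 42.4% of all genes tested were. In replicate 1, PPARGC1A, PPARA and PPARD were below the WT range, where 26.8% of all genes tested were, and ESRRG was above it, where 30.2% were. In replicate 2, 5 of 10 were above the WT range (PPARGC1A, PPARGC1B, PPARA, ESRRG and TFAM), and in replicate 4, 6 of 10 (PPARGC1A, PPARGC1B, PPARA, ESRRG, NRF1 and TFB2M). Of the tested regulators 4 of 8 were above it in each of these libraries, against 21.4% of the genes tested in replicate 2 and 24.3% in replicate 4.

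**Figure D3:**
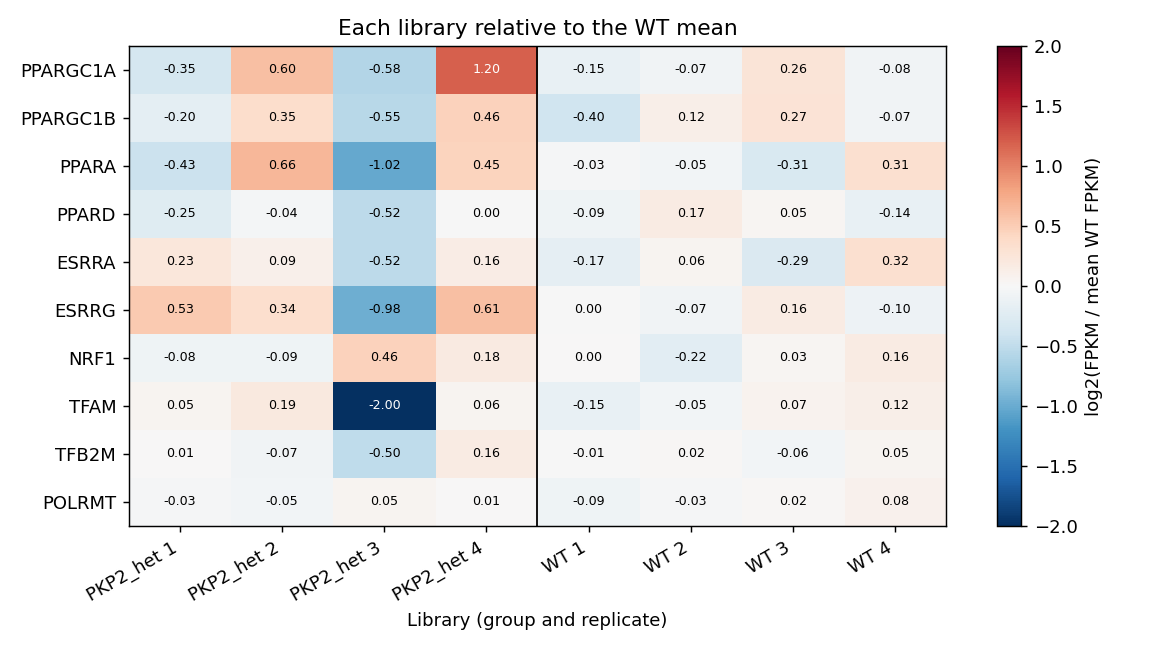
Log2 of each library's FPKM over the mean WT FPKM (colour and number) for the 10 regulators (rows) in the 4 PKP2_het and 4 WT libraries (columns). PKP2_het replicate 3 holds the lowest value, -2.0 for TFAM, and replicate 4 the highest, 1.202 for PPARGC1A, while POLRMT stays between -0.087 and 0.083.

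In order of mean level over the 8 libraries, ESRRA (96.8 FPKM) was followed by PPARA (13.6), TFAM (12.8), POLRMT (7.25), TFB2M (5.23), PPARGC1B (5.15), PPARD (4.43), PPARGC1A (3.83), ESRRG (0.859) and NRF1 (0.802). Some neighbours in that order could not be separated: PPARA exceeded TFAM in 5 of 8 libraries, TFB2M exceeded PPARGC1B in 4, and PPARD exceeded PPARGC1A, like ESRRG NRF1, in 6. The steps from ESRRA to PPARA, from POLRMT to TFB2M and from PPARGC1A to ESRRG held in all 8. These levels are per kilobase of the gene length deposited with the table, and those lengths differed widely. The length was 26.2 kb for ESRRG and 16.8 kb for PPARGC1A, but 1.40 kb for PPARA and 1.72 kb for TFAM, beside a median of 3.35 kb for all genes tested. By mean fragments, PPARGC1A was second, with 1812, and PPARA seventh, with 539; by FPKM PPARA was second and PPARGC1A eighth.

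The mitochondrial share of fragments was set beside the proteins that transcribe mitochondrial DNA. It was 25.7%, 21.1%, 52.1% and 33.4% in PKP2_het and 37.6%, 24.4%, 22.0% and 23.8% in WT, over 37 genes of the mitochondrial genome. The mean difference of 6.12 percentage points had a two-sided exact permutation p of 0.571, and without PKP2_het replicate 3 the difference was -0.227 points. The library with the highest share had the lowest levels of TFAM and TFB2M, and the second highest of POLRMT. PKP2_het replicate 4 and WT replicate 1, next in mitochondrial share, had TFAM at 14.3 and 12.3 FPKM. Deposited levels are scaled on the typical gene, and with libraries rescaled to equal FPKM sums, the median log2 fold change was -0.27 for the tested regulators and -0.23 for all genes tested.

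**Figure D4:**
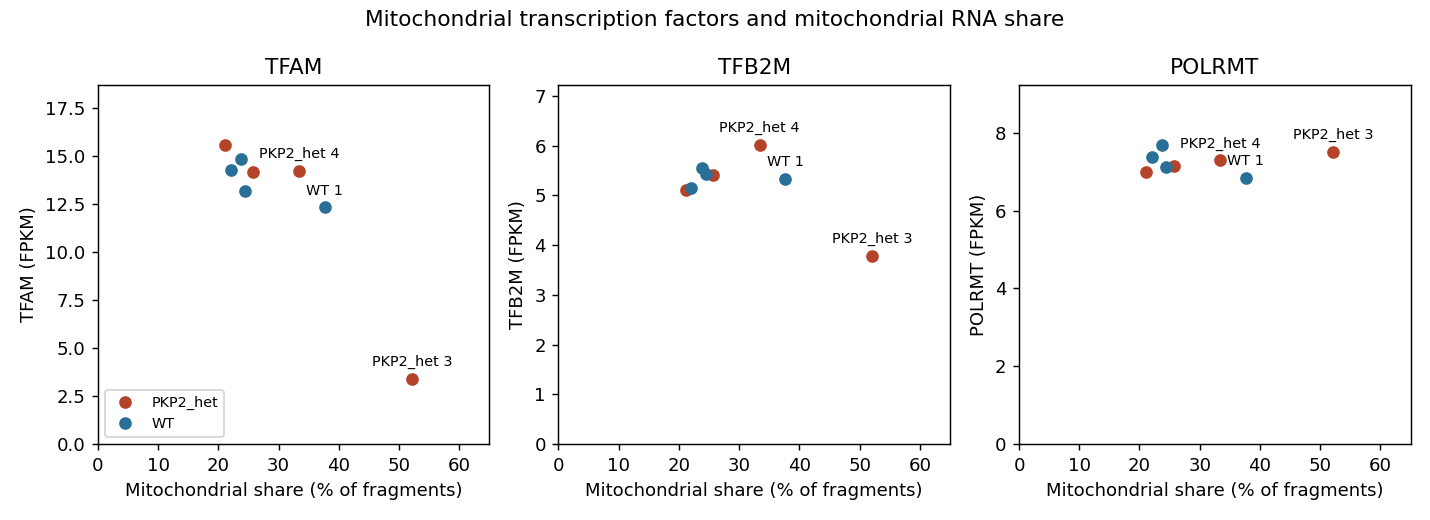
Level of TFAM, TFB2M and POLRMT in FPKM (vertical axes, from 0) against the mitochondrial share of fragments in percent (horizontal axis) in 4 PKP2_het and 4 WT libraries; libraries above 30% are named. PKP2_het replicate 3, at 52.1%, has TFAM at 3.42, TFB2M at 3.79 and POLRMT at 7.51 FPKM.

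Among 33 tested genes of mitochondrial DNA replication and expression, 1 rose and 1 fell in limma, where 1.15% of all genes tested rose and 0.707% fell; voom called 2. HSD17B10, a subunit of the mitochondrial RNase P that cuts tRNAs out of the primary transcript, was at 148, 115, 148 and 132 FPKM in PKP2_het and at 67.8, 76.7, 68.3 and 85.9 FPKM in WT. Every PKP2_het library exceeded every WT library, and the log2 fold change was 0.85 ± 0.14 (SE; limma adjusted p = 0.0118). ELAC2, which cuts the other end of those tRNAs, was at 6.004, 6.91, 6.23 and 7.48 FPKM in PKP2_het and at 10.2, 10.1, 10.2 and 12.2 FPKM in WT. Here every PKP2_het library lay below every WT library, with a log2 fold change of -0.60 ± 0.11 (SE; limma adjusted p = 0.0217). Groups did not overlap, in either direction, for 9.19% of the genes tested.

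Both calls were kept without PKP2_het replicate 3, at limma adjusted p of 0.0136 for HSD17B10 and 0.0224 for ELAC2, and RRM2B, a ribonucleotide reductase subunit that supplies deoxynucleotides, was then also called as higher, where 1.81% of all genes tested were, at a log2 fold change of 0.49 (adjusted p = 0.0224; 0.749 with all libraries). HSD17B10 lost its call in 2 of 17 alternative settings, equal sums (adjusted p = 0.732) and the replicate block (0.0815), and ELAC2 in 8 of 17, with adjusted p of 0.0224 to 0.0822 over the fits that left out 1 library (kept without PKP2_het replicate 3 or 4, lost without any of the other 6 libraries), 0.409 with equal sums and 0.0795 with the block. Over the whole list the median log2 fold change was -0.027, from 13 positive and 20 negative values.

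Of 43 tested partners and modulators of the coactivators and receptors, 0 were called by limma and 0 by voom, and 2 had an unadjusted p under 0.05, where 12.8% of all genes tested did. GABPA, the DNA-binding subunit of nuclear respiratory factor 2, was at 6.51, 5.83, 5.13 and 5.51 FPKM in PKP2_het and at 4.63, 3.85, 4.44 and 4.04 FPKM in WT. Its groups did not overlap, as for 9.19% of the genes tested, and the log2 fold change was 0.36 ± 0.10 (SE; limma adjusted p = 0.141). That value was 0.0138 with library weights and between 0.0535 and 0.812 in the other settings. KAT2A, an acetyltransferase that modifies PGC-1 alpha, had a log2 fold change of -0.23 (limma adjusted p = 0.371). PPRC1, the third coactivator of the PGC-1 family, was at 0.18 (adjusted p = 0.463), and NCOA3, a steroid receptor coactivator, at -0.24 (adjusted p = 0.529; -0.15 without WT replicate 2). The list had 16 positive and 27 negative log2 fold changes with all libraries, and 26 positive and 17 negative without PKP2_het replicate 3. With equal sums 2 were positive and 41 negative, with a median of -0.29, where the median of all genes tested was -0.23.

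The fatty acid oxidation genes that PPAR alpha and PPAR delta act on were mostly on the negative side. Log2 fold changes were below 0 for 22 of 28 tested, their median being -0.29; 0 were called by limma and 0 by voom, while 5 passed an unadjusted p of 0.05, as 12.8% of all genes tested did. With equal sums 27 were negative and the median was -0.56, against -0.23 for all genes tested. When PKP2_het replicate 3 was left out, 18 were negative, the median was -0.15 and 1 was called, as lower, where 1.11% of all genes tested were. That gene was EHHADH, the peroxisomal bifunctional enzyme, at 6.69, 6.36, 1.77 and 6.96 FPKM in PKP2_het and 9.15, 11.5, 8.85 and 10.9 FPKM in WT. Its groups did not overlap, as for 9.19% of the genes tested. The limma adjusted p of EHHADH was 0.245 with all libraries and 0.0351 without replicate 3. The carnitine palmitoyltransferases CPT1A and CPT2 had log2 fold changes of -0.65 (limma adjusted p = 0.260) and -0.47 (0.322), and ANGPTL4, a secreted inhibitor of lipoprotein lipase, -0.55 (0.343). CPT2 was at -0.30 without PKP2_het replicate 3 and ANGPTL4 at -0.30 without PKP2_het replicate 2.

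Among 27 tested respiratory and energy targets of the ERR receptors and NRF1, 0 were called by limma and 0 by voom, and 2 had an unadjusted p under 0.05, beside 12.8% of all genes tested. Of their log2 fold changes 8 were positive and 19 negative, with a median of -0.12; without PKP2_het replicate 3 these were 11 and 16, with a median of -0.024. TOMM34, a cytosolic cochaperone of mitochondrial import, was at 1.64, 1.35, 1.27 and 1.42 FPKM in PKP2_het and at 0.728, 0.910, 0.859 and 0.961 FPKM in WT. The groups did not overlap, as for 9.19% of the genes tested, and the limma adjusted p was 0.0699 with all libraries and 0.0488 without PKP2_het replicate 3. TOMM34 passed the filter only through PKP2_het, since every WT library was below 1 FPKM. Its separation and p-values therefore cannot be read as those of a gene that entered regardless of group. With no filter and all libraries the limma adjusted p was 0.102. TIMM17A, a subunit of the inner membrane import channel, had a log2 fold change of 0.29 (limma adjusted p = 0.324), ALAS1, the first enzyme of haem synthesis, -0.37 (0.412), and COX7A1, the muscle form of a cytochrome oxidase subunit, 0.52 (0.414). COX7A1 was at 2137 FPKM in PKP2_het replicate 3 and at 914 to 1281 FPKM in the other PKP2_het libraries, against 832 to 1006 FPKM in WT, and without that library its log2 fold change was 0.28.

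Of the 13 protein genes of the mitochondrial genome, 0 were called by limma or by voom and 0 had an unadjusted p under 0.05. Their median log2 fold change was 0.38 with all libraries and 0.0048 without PKP2_het replicate 3. ND1, a subunit of complex I, was at 4359, 3267, 32700 and 15800 FPKM in PKP2_het and at 6995, 4028, 3046 and 3797 FPKM in WT. PKP2_het replicates 3 and 4 were above every WT library, and replicates 1 and 2 were within the WT range. ATP8 and ND3 had log2 fold changes of 2.66 ± 1.36 (SE; limma adjusted p = 0.463) and 0.87 ± 0.50 (0.522), and COX2 had 0.65 ± 0.49 (0.622). Without PKP2_het replicate 3 the values were 1.55 for ATP8, 0.35 for ND3 and 0.22 for COX2, and that of ND1 was 0.52, against 1.12 with all libraries.

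Markers of other cells moved with the libraries as well. All 10 endothelial markers lay on the negative side, with 0 called by limma or voom, 0 at an unadjusted p under 0.05 and a median of -0.26, or -0.42 without PKP2_het replicate 3. Their sum ran from 243 to 499.7 FPKM in PKP2_het and from 289.6 to 561 FPKM in WT; the 3 most abundant, PECAM1, VWF and CLDN5, had log2 fold changes of -0.29, -0.24 and -0.55 (limma adjusted p = 0.691, 0.746 and 0.407), and of -0.48, -0.40 and -0.74 without PKP2_het replicate 3. CLDN5 was called with library weights (limma adjusted p = 0.0433). Of 9 tested macrophage markers 9 were negative, with 0 called by limma or voom, 1 at an unadjusted p under 0.05, a median of -0.15 (-0.27 without PKP2_het replicate 3) and sums of 23.1 to 62.8 FPKM in PKP2_het and 41.9 to 58.2 FPKM in WT. Fibroblast marker sums were 264 to 567 FPKM in PKP2_het and 297 to 416 FPKM in WT, with PKP2_het replicate 3 the lowest. Lymphocyte marker sums were low, at 4.98 to 8.06 FPKM in PKP2_het and 8.12 to 9.62 FPKM in WT. These ranges did not overlap but nearly touched, at 8.06 and 8.12 FPKM. Among single genes tested, 9.19% had groups that did not overlap. Of 9 lymphocyte markers 3 were tested, all negative, and 0 were called by limma. Of 6 tested adipocyte markers 4 were positive and 2 negative, and 0 were called by limma. The 3 most abundant went different ways. CFD was at 0.63 (limma adjusted p = 0.146) and was called with library weights (0.0494). FABP4 was at -1.095 (limma adjusted p = 0.660) and PLIN4 at 0.045 (0.946). No marker of these lists was at 0 in all libraries. Of 3 tested skeletal muscle markers 2 were positive and 1 negative, with a median log2 fold change of 0.13. ACTA1 was at 0.13 (limma adjusted p = 0.779) and TNNT1 at 0.25 (0.659). The negative marker was called, as lower, where 0.707% of all genes tested were. That marker was MYL1, which encodes an essential light chain of fast-fibre myosin. MYL1 was at 2.08, 1.91, 2.79 and 0.646 FPKM in PKP2_het and at 31.0, 16.3, 5.46 and 55.2 FPKM in WT. Its groups did not overlap, as for 9.19% of the genes tested, and its log2 fold change was -2.96 ± 0.57 (SE, limma adjusted p = 0.0328). That call was lost in 9 of 17 alternative settings, with adjusted p between 0.000541 and 0.146 over all of them. The summed skeletal muscle markers ran from 5208 to 6925 FPKM in PKP2_het and from 4555 to 6252 FPKM in WT. Nearly all of that sum was ACTA1, at 5198 to 6917 FPKM in PKP2_het and 4541 to 6190 FPKM in WT. The sum therefore says little about the other markers of the list, of which MYH4 was at 0 throughout. Immediate early genes had 17 positive and 2 negative log2 fold changes, with a median of 0.30, against -0.022 for all genes tested. With equal sums these were 12 and 7, with a median of 0.10, against -0.23 for all genes tested. Of 19 tested 1 was called, as higher, where 1.15% of all genes tested were. The call was IER3 (log2 fold change 0.88, limma adjusted p = 0.0400), which was lost in 8 of 17 alternative settings, with adjusted p up to 0.732. With library weights 4 were called, in a setting that called 367 genes higher and 292 lower of the 10757 tested. The part of cell makeup and of tissue handling in the regulators' levels was not tested.

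The genes most alike in profile were sought over the 8 libraries among 9989 tested genes with a symbol, by the root mean square difference of centred log2(FPKM + 1). PPARGC1A was nearest to RBM20 (0.16), JPH1 (0.16) and TBC1D9 (0.19). RBM20, a splicing factor of heart muscle, was at 8.33, 10.5, 6.59 and 19.4 FPKM in PKP2_het and at 7.95, 10.6, 10.2 and 9.67 FPKM in WT, so that replicate 4 stood above all others, as for PPARGC1A. TFAM was nearest to MAP3K20 (0.064), NCOA4 (0.079) and MYLK3 (0.093); MYLK3, the cardiac myosin light chain kinase, was at 8.23 FPKM in PKP2_het replicate 3 and at 23.9 to 34.9 FPKM in the other 7 libraries. POLRMT was nearest to PYGO2 (0.028), LRP2BP (0.029) and SYDE1 (0.035), and 6.42% of the genes compared lay within 0.1 of it, against 0.0501% for TFAM and 0 for PPARGC1A.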

How the data were processed

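The deposited table holds FPKM values made by the authors for 30550 genes in 8 libraries; 30335 genes matched RefSeq of Sscrofa11.1 with the same start and end. Per the labels' protocols, reads were 150 bp pairs aligned with HISAT2 2.0.5; which program counted them, and how values were scaled, is not given in the sources used here. FPKM times gene length gave whole multiples of 1 step for 100% of values (within 0.01), which recovered the fragments, and the library scale equals median-of-ratios factors over 15715 genes (largest relative difference 5.55e-14). Levels are thus relative to the typical gene.

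Values were tested as log2(FPKM + 1) with limma 3.58.1 (R 4.3.3), variance trend, Benjamini-Hochberg adjustment over the 10757 genes that reached 1 FPKM in 4 or more libraries; folds of low genes are understated. Groups came from sample titles. Of the list entries 261 matched by symbol and 5 by older symbol, 12 had no match and 1 was ambiguous. The regulators and lists were chosen with earlier results of these data known. Named genes were PKP2, the regulators, list members called or, with none called, the 4 with the smallest p, leading markers and nearest profiles; RRM2B was named after its values were seen. Pairs of same-group libraries differed beyond counting error (chi-square per degree of freedom at least 23.3). The fit was tested on simulated data. Alternatives covered pseudocounts of 0.1 and 0.5, filters, scalings, weights, voom, a replicate block and leaving out each library.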

Additional observations from a re-analysis of the deposited data

Results flagged for a closer look

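A library is listed here where its gap to the nearest of the 4 in its group, relative to that group's range, passed Dixon's 95% critical value. Of 120 groups examined 9 held such a library, and about 1 in 20 would by chance. Among the regulators, TFAM was at 3.42 FPKM in PKP2_het replicate 3, the other PKP2_het libraries lying at 14.2 to 15.6 FPKM, and PPARGC1A at 3.95 FPKM in WT replicate 3, against 2.98 to 3.14 FPKM in the other WT libraries. EHHADH, a PPAR alpha target, was at 1.77 FPKM in PKP2_het replicate 3, against 6.36 to 6.96 FPKM. COL3A1, a fibrillar collagen, was at 94.3 FPKM in PKP2_het replicate 2, against 57.1 to 57.9 FPKM.

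WT replicate 1 had a mitochondrial share of 37.6%, against 22.0% to 24.4% in the other WT libraries. In the same library ATP8 was at 296 FPKM against 103 to 122, ND3 at 6130 FPKM against 3570 to 3770, and TAGLN, a smooth muscle marker, at 78.6 FPKM against 57.3 to 58.9. ELAC2 was at 12.2 FPKM in WT replicate 4, against 10.1 to 10.2 FPKM in the other WT libraries; without that library its log2 fold change was -0.54 and its call was lost (limma adjusted p = 0.0822).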

How the results depend on the processing

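No regulator was called in any of 134 combinations of a regulator and an alternative setting; the smallest limma adjusted p was 0.167, for PPARGC1A with library weights (log2 fold change 0.52). Direction was not fixed for most. Over the fits that left out 1 library, log2 fold changes ran from -0.062 to 0.41 for PPARGC1A, -0.090 to 0.19 for PPARGC1B, -0.28 to 0.23 for PPARA, -0.080 to 0.18 for ESRRA, -0.54 to 0.098 for TFAM, -0.15 to 0.031 for TFB2M and -0.029 to 0.021 for POLRMT; PPARD ran from -0.21 to -0.075. With equal sums PPARGC1B was at -0.18, ESRRA at -0.26 and PPRC1 at -0.011; with library weights PPARA was at 0.38 and TFAM at 0.068; with quantile normalisation ESRRA was at -0.010 and POLRMT at 0.021. The library weights were 0.141 for PKP2_het replicate 3, the lowest, and 0.665 to 2.73 for the other libraries. With equal sums the median log2 fold change of all genes tested was -0.23. For the reversals other than those by left-out libraries the cause was not tested.

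Across all genes 124 were higher and 76 lower in PKP2_het. The counts were 51 and 37 with a filter of 5 FPKM, 50 and 45 with equal sums, 367 and 292 with library weights, and 75 to 195 and 40 to 119 on leaving out 1 library. The libraries that moved both counts by over 1.5 times were PKP2_het replicate 3 (195 and 119 without it), WT replicate 2 (77 and 42) and WT replicate 4 (75 and 40); the lower count alone was 44, 49 and 50 without PKP2_het replicates 1, 2 and 4. With the replicate block they were 66 and 39, and 0 of 8 regulators were called. Deviations of same-numbered libraries correlated at -0.39, 0.033, -0.23 and 0.20 for numbers 1 to 4. The labels do not say whether the numbers pair the libraries, and these values cannot settle it. The PKP2 difference was -32.3 FPKM with equal sums (two-sided exact permutation p = 0.0857) and -26.2 to -18.2 FPKM on leaving out 1 library. The mitochondrial share difference ran from -0.227 to 10.1 percentage points and the log2 ratio difference of ESRRA to ESRRG from -0.32 to 0.030 on leaving out 1 library, the sign changing without PKP2_het replicate 3 for the share and without WT replicate 4 for the ratio. NRF1 and ESRRG enter a test only without the filter. With 4 libraries a group, intervals as wide as those of TFAM and PPARA leave changes of moderate size undetectable.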
